A study of Mus musculus with 3 samples.

Results

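The genes described here encode 10 cytokines of inflammation: Tnf, Il1a, Il1b, Il1rn, Il6, Il10, Il15, Il18, Osm and Tgfb1. They were found on the arrays by gene name, or by the current symbol of the probe's accession, without use of any signal. All 10 genes were present, with 14 probes of 41174 in all. Il1a, Il1rn, Il15 and Osm had 2 probes each.

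RNA came from peritoneal macrophages of male Swiss albino mice aged 8 weeks and was hybridised to 1-colour Agilent arrays, 1 array for each of 3 groups of 10 animals. All groups had been given 125 µg of lipopolysaccharide, a bacterial product that recruits macrophages, by intraperitoneal injection on day 0. The control mice then received, on day 4, 100 ng of TPA, a phorbol ester that activates protein kinase C, with no chromate. The other groups received the same TPA together with potassium dichromate, a hexavalent chromium salt, at 35 or 70 nmol. Cells were lavaged from the peritoneum 4 days later into chilled medium that held serum and GM-CSF, itself a cytokine. The sample labels state the doses as nmol of Cr(VI), whereas the protocol states them as nmol of the salt. The sources used here do not settle whether an array carries RNA of 1 animal or of a pool. The lipoic acid of the series title was given to none of the groups on these arrays. The study set the doses against TPA alone; because all groups received lipopolysaccharide and TPA, no array shows cells without them.

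Macrophages that sense bacterial products switch on Tnf, Il1a, Il1b and Il6, whose proteins carry the alarm to other cells, and later make Il10 and Il1rn, which limit it. Transcription of these genes is driven mainly by NF-kB, by AP-1, which phorbol esters activate, and by STAT factors. The messages are short-lived, and for Il1b and Il18 a second step, cleavage by an inflammasome protease, helps decide how much active protein leaves the cell. Transcript levels alone therefore say nothing of the amount of secreted protein.

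The promoters of Tnf, Il1b and Il6 are shown because these are alarm cytokines whose levels differed between the arrays in unlike ways. Each run holds the 250 bases before the gene's start, 5′ to 3′ on the gene's strand, from RefSeq on build GRCm38.p6. Tnf lies at chr17:35202008-35202257 on the minus strand, Il1b at chr2:129371140-129371389 on the minus strand and Il6 at chr5:30012864-30013113 on the plus strand. Capitals mark matches to 3 motifs searched on both strands: the NF-kB consensus, the TPA response element TGANTCA to which AP-1 binds, and the TATA box TATAAA.
Tnf: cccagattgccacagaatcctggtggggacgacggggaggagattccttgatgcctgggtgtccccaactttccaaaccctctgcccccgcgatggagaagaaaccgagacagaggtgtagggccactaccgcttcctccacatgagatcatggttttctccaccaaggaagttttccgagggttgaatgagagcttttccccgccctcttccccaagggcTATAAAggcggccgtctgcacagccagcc
Il1b: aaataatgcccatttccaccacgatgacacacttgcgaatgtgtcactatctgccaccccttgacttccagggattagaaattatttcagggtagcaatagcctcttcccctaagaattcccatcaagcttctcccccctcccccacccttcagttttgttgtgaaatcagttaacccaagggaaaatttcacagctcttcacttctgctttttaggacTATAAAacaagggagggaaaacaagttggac
Il6: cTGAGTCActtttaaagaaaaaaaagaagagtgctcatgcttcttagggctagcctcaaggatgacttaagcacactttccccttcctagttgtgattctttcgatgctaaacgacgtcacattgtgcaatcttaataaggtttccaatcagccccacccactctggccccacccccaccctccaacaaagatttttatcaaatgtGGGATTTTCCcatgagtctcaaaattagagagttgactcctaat

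In these windows Tnf and Il1b held a TATA box and no match to the other motifs. The TATA box lay 29 to 24 bases before the start of Tnf and 31 to 26 bases before that of Il1b. Il6 held an NF-kB consensus match, GGGATTTTCC, 44 to 35 bases before its start and a TPA response element, TGAGTCA, 249 to 243 bases before it. Of 32817 mouse promoters of this length, 7.25% held the NF-kB consensus, 6.75% the TPA response element and 12.4% the TATA box. Among the other members, Il1a held TGACTCA 12 to 6 bases before its start together with a TATA box, 1 of 3 Il1rn starts held TGAGTCA, Tgfb1 held the NF-kB consensus match GGGACCCCCC, and Il18 held a TATA box on the opposite strand. In all, 7 of the 10 members had an entry; Il10, Il15 and Osm did not. A match is only a run of letters, and a missing one says nothing of whether a factor binds.

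Levels below are log2 of the scanner's processed intensity after each array was scaled on its 75th percentile, so a level of 0 is the brightness that 25% of spots exceed. A probe counted as measured in a comparison when the Feature Extraction flag placed it well above background on both arrays. Of the 41174 probes, 49.1%, 45.9% and 45.1% were well above background on the TPA-alone, 35 nmol and 70 nmol arrays. The spread quoted as scanner error is the software's own estimate for the 2 arrays together, and 6 members also have a probe printed in 10 spots, whose range on an array is given. These spreads are technical, so no difference here has a replicate check and no p-value is given; the number of arrays limits the precision. The arrays were on 1 slide, scanned together, and each group had its own position there, so group and position cannot be told apart. Scaling on spike-in RNA instead moved the median gene by -0.36 against TPA alone at 70 nmol, by -0.42 at 35 nmol, and by 0.061 between the doses. Positive differences from TPA alone smaller than the size of the shift at that dose change sign under that scaling. Between the doses, negative differences smaller in size than 0.061 do so.

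The labelled cell type could be seen in the markers: all 8 macrophage markers, including Adgre1, Csf1r and Cd68, were well above background on every array. Markers of other cells were present as well, and several of their sums moved with the dose. In bulk RNA, fewer cells of a type and less RNA per cell cannot be told apart.

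Across the 10 genes, Tnf was higher with chromate at 70 nmol and, except with spike-in scaling, at 35 nmol. Il6 was lower at 70 nmol, Il15 was lowest at 35 nmol, and the differences of Il18 and Tgfb1 lay within the scanner error, except with spike-in scaling. Of the 14 probes, 9 were measured in each comparison. None of the 9 differed at least 2-fold in any comparison, where 2.46% of all measured probes did so for 70 nmol against TPA alone, 1.29% for 35 nmol against TPA alone and 1.45% for 70 against 35 nmol. The difference exceeded the scanner error in 5 of 9 probes at 70 nmol (40.5% of all measured probes), 5 of 9 at 35 nmol (29.7%) and 6 of 9 between the doses (32.9%). At 1.5-fold, 2 of 9 probes passed at 70 nmol (9.09% of all measured probes), 2 of 9 at 35 nmol (4.81%) and 1 of 9 between the doses (6.32%). The 9 differences ran from -0.59 to 0.90 at 70 nmol with a median of 0.056, beside a median of 0.024 over all measured probes. At 35 nmol they ran from -0.90 to 0.62 with a median of 0.11, beside 0.022. In size, without regard to sign, their medians were 0.235 at 70 nmol, 0.260 at 35 nmol and 0.403 between the doses, where all measured probes had 0.178, 0.140 and 0.151. The comparisons with TPA alone share their control array. Only the Il18 and Tgfb1 probes were as bright as the median probe well above background, so the other members are read from dim spots.

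**Figure D1:**
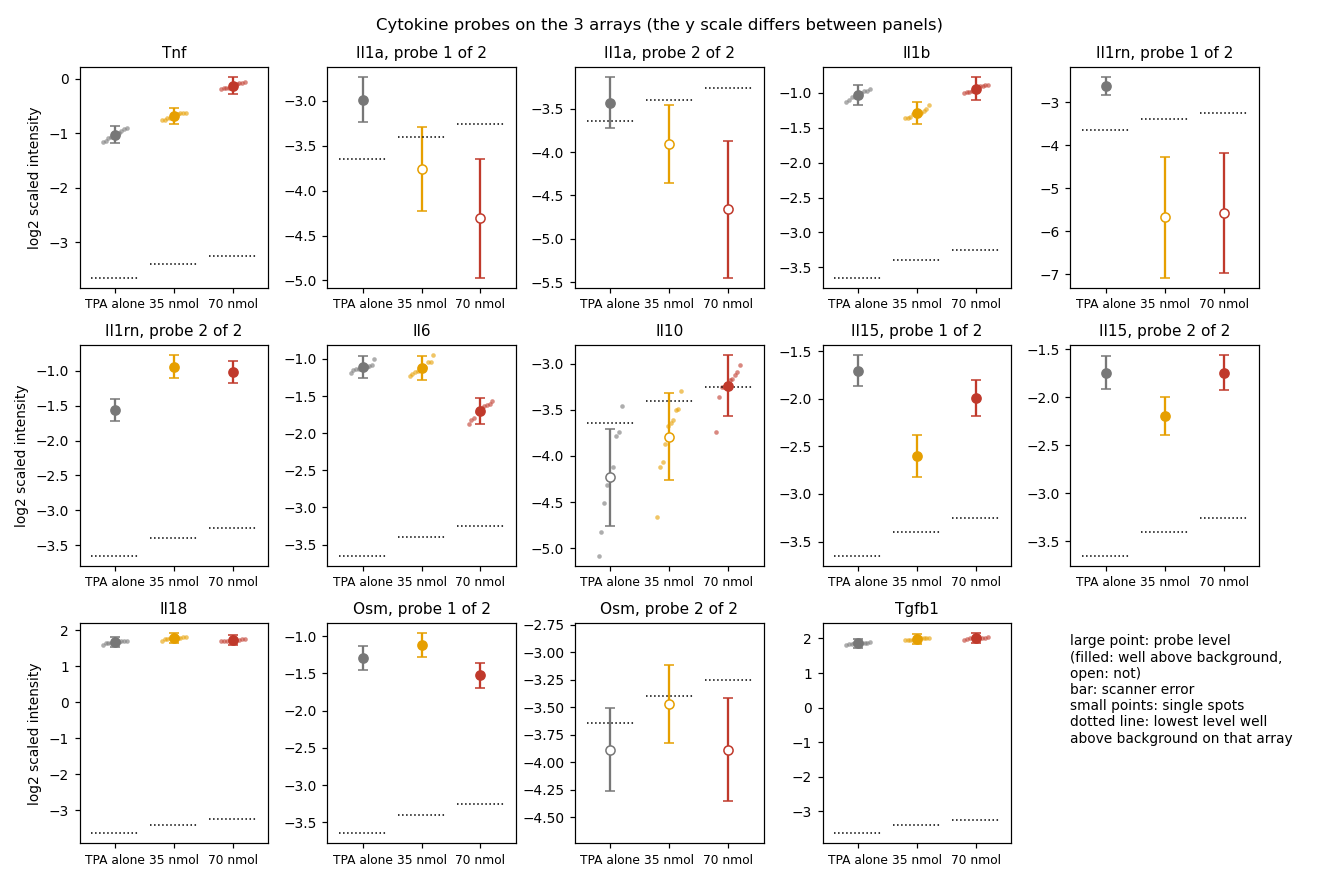
Level of each of the 14 probes (log2 scaled intensity, y axis, with its own scale in each panel) on the TPA-alone, 35 nmol and 70 nmol arrays. Large points are probe levels, filled where well above background and open where not; bars are the scanner error, small points single spots, and dotted lines each array's lowest detected level. Tnf is highest at 70 nmol (-0.12) and Il6 is lowest there (-1.70), both with spots clear of those on the TPA-alone array.

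Tnf encodes tumour necrosis factor, a trigger of inflammation and, in some cells, of cell death. Its probe A_51_P385099 (chr17:34807902-34807961, minus strand, build mm8) had a level of -1.02 on TPA alone, -0.68 at 35 nmol and -0.12 at 70 nmol. The 10 spots spanned -1.15 to -0.89 on TPA alone, -0.76 to -0.62 at 35 nmol and -0.18 to -0.06 at 70 nmol. No spot of one array fell within the range of another, so the order of the 3 arrays did not rest on the spread between spots. Such separation was common: 62.9% of the measured 10-spot probes had separate spot ranges at 70 nmol against TPA alone, 46.3% at 35 nmol and 64.4% between the doses. Tnf at 70 nmol was higher than on TPA alone by 0.90 ± 0.21 (scanner error), a 1.86-fold difference, and 1.87% of measured probes were as high or higher. Over the alternative settings this difference lay between 0.54 and 0.94. At 35 nmol it was higher by 0.34 ± 0.22, or 1.27-fold, but lower by 0.084 when the arrays were scaled on spike-ins. Between the doses Tnf at 70 nmol was 0.56 ± 0.21 above 35 nmol (1.47-fold). Before any scaling, its median processed intensities over the 10 spots were 132.5 on TPA alone, 127.2 at 35 nmol and 196.0 at 70 nmol. The 70 nmol array was thus brightest also as scanned.

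Il1a and Il1b encode the 2 agonists of the interleukin-1 receptor, which raise fever and recruit neutrophils. Il1b is made as an inactive precursor that caspase-1 cleaves. Its probe A_51_P212782 (chr2:129056052-129056111, minus strand) had a level of -1.03 on TPA alone, -1.29 at 35 nmol and -0.94 at 70 nmol. Its spots spanned -1.13 to -0.94, -1.37 to -1.17 and -1.01 to -0.88 on those arrays, with 9 of 10 spots used on TPA alone. The 35 nmol spots were the lowest and overlapped neither other array, while the spots of 70 nmol and TPA alone overlapped. At 70 nmol Il1b differed from TPA alone by 0.09 ± 0.22, or by -0.27 with spike-in scaling. At 35 nmol it was lower than TPA alone by 0.26 (difference -0.26 ± 0.22), and 70 nmol lay 0.35 ± 0.22 above 35 nmol.

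Il1a was near the limit of detection. The probe A_51_P438283, whose coordinates (chr2:128994430-128996164) span more bases than a probe has and so cross an intron, had levels of -2.99 on TPA alone, -3.76 at 35 nmol and -4.31 at 70 nmol. It was well above background on the TPA-alone array only. It was at least 1.33-fold lower at 35 nmol and at least 1.20-fold lower at 70 nmol than on TPA alone. Each bound sets the bright signal against the higher of the dim signal and the lowest signal well above background on the dimmer array. Left out of these bounds is the scanner error of the differences, 0.53 at 35 nmol and 0.71 at 70 nmol. The other probe, A_52_P100926 (chr2:128991699-128991758), had levels of -3.43, -3.91 and -4.66 in the same order of arrays. It too was well above background on TPA alone only, and too close to the limit to give a bound above 1. Both probes were thus well above background on TPA alone only. That array passed the largest share of all probes, 49.1% against 45.9% at 35 nmol and 45.1% at 70 nmol. Its lowest level well above background was -3.65, against -3.40 at 35 nmol and -3.26 at 70 nmol. The TPA-alone level of A_52_P100926, -3.43, lay below the lowest passing level of either chromate array.

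Il1rn encodes the interleukin-1 receptor antagonist, a secreted protein that occupies the receptor without signalling. Its 2 probes went opposite ways. The probe A_52_P431159 (chr2:24172614-24172673, plus strand) had levels of -1.56 on TPA alone, -0.94 at 35 nmol and -1.01 at 70 nmol. It was higher than TPA alone by 0.55 ± 0.23 at 70 nmol (1.46-fold) and by 0.62 ± 0.22 at 35 nmol (1.54-fold), with a difference between the doses of -0.07 ± 0.22. With spike-in scaling these differences from TPA alone were 0.19 and 0.20, smaller than the scanner error. At 35 nmol 2.32% of measured probes were as high or higher. The probe A_51_P307166 (chr2:24169524-24170544), which crosses an intron, had levels of -2.63 on TPA alone, -5.68 at 35 nmol and -5.57 at 70 nmol. It was well above background on TPA alone only, and was at least 1.55-fold lower at 70 nmol and at least 1.71-fold lower at 35 nmol. Left out of these bounds is the scanner error of the differences, 1.5 at each dose. Each probe was a single spot, so neither has a spot range, and which of them follows the main transcript was not tested.

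The differences of Il1b and of the Il1rn probe A_52_P431159 can be compared within an array, where the scaling cancels. The other Il1rn probe went the opposite way, at least 1.55-fold lower at 70 nmol and 1.71-fold lower at 35 nmol, scanner error left out. The contrast of agonist and antagonist therefore holds for the first Il1rn probe only. The difference of Il1rn (A_52_P431159) minus that of Il1b was 0.46 ± 0.31 at 70 nmol and 0.88 ± 0.32 at 35 nmol, a 1.84-fold gain at 35 nmol. Over the alternative settings it ran from 0.29 to 0.47 at 70 nmol and from 0.50 to 0.91 at 35 nmol. The difference of Tnf minus that of Il1b was 0.81 ± 0.30 at 70 nmol and 0.60 ± 0.31 at 35 nmol. These pairs were chosen after the values were seen.

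Il6 encodes interleukin-6, which acts through gp130 and STAT3 and induces acute phase proteins in liver. Its probe A_51_P217218 (chr5:30350609-30350668, plus strand) had a level of -1.11 on TPA alone, -1.12 at 35 nmol and -1.70 at 70 nmol. The 10 spots spanned -1.19 to -1.01 on TPA alone, -1.23 to -0.95 at 35 nmol and -1.87 to -1.56 at 70 nmol. The spots of 35 nmol and TPA alone overlapped throughout, and those of 70 nmol lay below both. Il6 at 70 nmol was lower than TPA alone by 0.59 (difference -0.59 ± 0.23, fold 0.666), and 4.01% of measured probes were as low or lower. At 35 nmol the difference was -0.0045 ± 0.22, with 0.063 as its highest value over the alternatives and -0.43 with spike-in scaling. Between the doses Il6 at 70 nmol was lower by 0.58 (difference -0.58 ± 0.24). With the normexp background correction, which adds an offset to every spot, the differences at 70 nmol shrank to -0.25 for Il6 and 0.67 for Tnf.

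Tnf and Il6, whose promoters are printed above, stood on opposite sides of TPA alone at 70 nmol. The difference of Tnf minus that of Il6 was 1.49 ± 0.32 at 70 nmol, a 2.80-fold shift of one against the other within the arrays. Over the alternative settings it ran from 0.92 to 1.49. At 35 nmol it was 0.34 ± 0.31, and between the doses 1.14 ± 0.32. Tnf and Il6 had the highest and lowest differences of the 9 measured probes at 70 nmol, and the pair was chosen after the values were seen.

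Osm encodes oncostatin M, a gp130 cytokine made by myeloid cells. Its probe A_51_P291361 (chr11:4140146-4140205, plus strand) had levels of -1.29 on TPA alone, -1.12 at 35 nmol and -1.53 at 70 nmol. At 70 nmol it was lower than TPA alone by 0.24 (difference -0.24 ± 0.23) and lower than 35 nmol by 0.40 (difference -0.40 ± 0.23). Over the alternative settings the difference from TPA alone at 70 nmol ran from -0.60 with spike-in scaling to -0.021 with normexp. At 35 nmol it differed from TPA alone by 0.17 ± 0.22, or by -0.26 with spike-in scaling. The other probe, A_52_P348614 (chr11:4139500-4139559), was well above background on none of the arrays, with levels between -3.89 and -3.47.

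Il10 encodes interleukin-10, which restrains macrophage activation through STAT3. Its probe A_51_P430766 (chr1:132851912-132851971, plus strand) had levels of -4.23 on TPA alone, -3.79 at 35 nmol and -3.24 at 70 nmol. Well above background were 6 of 10 spots at 70 nmol, 0 of 10 at 35 nmol and 2 of 10 on TPA alone. Of those last 2, 1 was marked as an outlier by the scanner software, with an intensity of 88.5, and was left out. By the rule that most spots must pass, Il10 was well above background at 70 nmol only, at least 1.33-fold higher than TPA alone and at least 1.12-fold higher than 35 nmol. These bounds leave out the scanner error of the differences, 0.63 against TPA alone and 0.57 against 35 nmol. The spots spanned -5.08 to -3.46 on TPA alone, -4.67 to -3.29 at 35 nmol and -3.75 to -3.01 at 70 nmol. All 3 ranges overlapped, so the order of these levels was not separated from the spread between spots.

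Il15 encodes interleukin-15, which myeloid cells present to NK cells and memory T cells. Its probe A_52_P15461 (chr8:85230251-85230310, minus strand) had levels of -1.70 on TPA alone, -2.60 at 35 nmol and -1.99 at 70 nmol. At 35 nmol it was lower than TPA alone by 0.90 (difference -0.90 ± 0.27, fold 0.536), the lowest difference among the 9 measured probes in that comparison, and 0.481% of measured probes were as low or lower. At 70 nmol its difference from TPA alone was -0.28 ± 0.25, and 70 nmol lay 0.62 ± 0.29 above 35 nmol (1.53-fold). The other probe, A_52_P383066 (chr8:85239084-85239143), had levels of -1.74 on TPA alone, -2.20 at 35 nmol and -1.74 at 70 nmol. It differed the same way at 35 nmol, by -0.45 ± 0.26, and by 0.0012 ± 0.24 at 70 nmol, or -0.36 there with spike-in scaling. On both probes the 35 nmol array was the lowest of the 3. Over the alternatives the differences at 35 nmol ran from -1.32 to -0.29 on the first probe and from -0.88 to -0.14 on the other, and the smallest sizes came from normexp.

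Il18 encodes interleukin-18, a caspase-1 substrate that induces interferon-gamma, and was among the bright members. Its probe A_51_P153565 (chr9:50331595-50333723, plus strand, across an intron) had levels of 1.67 on TPA alone, 1.77 at 35 nmol and 1.72 at 70 nmol. It differed from TPA alone by 0.06 ± 0.20 at 70 nmol and by 0.11 ± 0.20 at 35 nmol, or by -0.31 and -0.32 with spike-in scaling. The spot ranges of all 3 arrays overlapped.

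Tgfb1 encodes transforming growth factor beta 1, stored in a latent complex and known for restraint of inflammation and for fibrosis. Its probe A_51_P390715 (chr7:25413618-25413677, plus strand) had levels of 1.86 on TPA alone, 1.98 at 35 nmol and 2.01 at 70 nmol. The spots spanned 1.82 to 1.90 on TPA alone, 1.96 to 2.02 at 35 nmol and 1.95 to 2.04 at 70 nmol. Spots of both chromate arrays lay above those of TPA alone and overlapped each other. The differences of 0.15 ± 0.20 at 70 nmol and 0.12 ± 0.20 at 35 nmol were nevertheless within the scanner error, and became -0.21 and -0.30 with spike-in scaling.

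**Figure D2:**
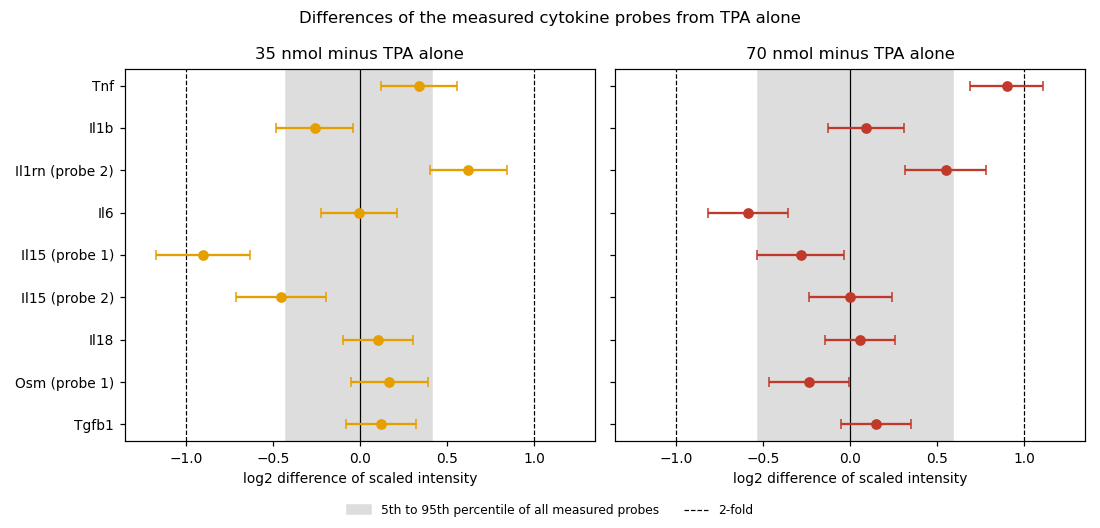
Difference from TPA alone (log2 scaled intensity, x axis) of the 9 measured cytokine probes, at 35 nmol on the left and 70 nmol on the right; bars are the scanner error, the grey band holds the 5th to 95th percentile of all measured probes and dashed lines mark 2-fold. At 70 nmol Tnf (0.90) and Il6 (-0.59) lie outside the band on opposite sides, and at 35 nmol Il1rn (0.62), Il15 (-0.90 and -0.45) lie outside it, while Tnf at 35 nmol (0.34, or -0.084 with spike-in scaling) lies inside.

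The genes around these cytokines were grouped in 6 lists of 137 genes: receptors, processing and release, signalling, control of the messages, feedback and target genes, and related cytokines. Relative to the median gene, receptors and target genes were mostly a little higher with chromate at 70 nmol, whereas related cytokines were mostly lower at 70 than at 35 nmol. At 70 nmol 106 list genes were measured, of which 1 exceeded TPA alone by 2-fold or more and 3 lay below it by as much, where 2.71% of all measured genes differed 2-fold. At 35 nmol 3 of 104 were 2-fold higher and 1 lower (1.42% of all measured genes), and between the doses 1 of 104 was higher and 2 lower (1.64%). With spike-in scaling 1 was 2-fold higher and 5 lower at 70 nmol, and 1 higher and 2 lower at 35 nmol.

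Of 19 measured receptor and binding protein genes, 16 were higher and 3 lower at 70 nmol than on TPA alone, with a median of 0.19 beside 0.038 over all measured genes. With spike-in scaling 3 were higher and 16 lower, and the same number, 16, lay above the median of all genes. At 35 nmol 10 were higher and 9 lower (median 0.0071 beside 0.039), or 1 higher and 18 lower with spike-in scaling. Tnfrsf1b, the TNF receptor of leukocytes, had levels of 2.91 on TPA alone, 3.29 at 35 nmol and 3.57 at 70 nmol. It was higher by 0.66 ± 0.20 at 70 nmol and by 0.37 ± 0.20 at 35 nmol, and that value turned to -0.05 with spike-in scaling; its other probe gave 0.35 and -0.08. Tnfrsf1a, the TNF receptor of most cells, differed by 0.19 and -0.08 at those doses, or -0.17 and -0.51 with spike-in scaling. Lifr, a partner of gp130, differed by 0.19 at 70 nmol, or -0.18 with spike-in scaling, and by 0.56 at 35 nmol. Its other probes measured against TPA alone gave 0.358, -0.319 and 0.273 at 70 nmol, and 0.208, 0.168 and 0.0599 at 35 nmol. The spike-in shift of -0.42 at 35 nmol would bring the 0.56 within its scanner error of 0.20. Osmr, the oncostatin M receptor, was well above background at 70 nmol only, at least 2.29-fold higher than TPA alone. That bound leaves out its scanner error of 0.47 and the spike-in shift of -0.36, which would lower it. No probe of Il1r2, the interleukin-1 decoy receptor, or of Tgfbr3 was well above background.

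Of 16 measured genes of processing and release, 7 were higher and 9 lower at 70 nmol (median -0.022), and 9 were higher and 7 lower at 35 nmol (median 0.055). With spike-in scaling 2 were higher and 14 lower at 70 nmol, and none higher and 16 lower at 35 nmol. Ltbp1 and Thbs1 differed 2-fold at 70 nmol, while other genes that act on latent TGF-beta differed less, Ltbp3 by -0.33, Itgav by -0.0074, Nrros by 0.34 and Furin by 0.45. Ltbp1, which ties the latent complex to matrix, had levels of 2.56 on TPA alone, 2.14 at 35 nmol and 1.17 at 70 nmol. At 70 nmol it was lower by 1.39 (difference -1.39 ± 0.20, 2.62-fold), while its other probe gave -0.54. Thbs1, thrombospondin-1, an activator of latent TGF-beta, had levels of 2.36, 2.15 and 1.07 on the same arrays. It was lower at 70 nmol by 1.29 (difference -1.29 ± 0.20), with -1.11 and -1.23 on its other probes, and by 0.22 at 35 nmol (difference -0.22 ± 0.20). Tgfb1 itself differed by no more than the scanner error at either dose, except with spike-in scaling. Of the inflammasome genes, Nlrp3 differed by -0.61 ± 0.36 at 70 nmol and -0.83 ± 0.37 at 35 nmol, and by only -0.087 and -0.13 with normexp. Casp1, which cleaves the Il1b and Il18 precursors, differed by 0.18 and -0.10, or -0.18 and -0.53 with spike-in scaling.

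Signalling genes were divided, with 15 higher and 12 lower of 27 at 70 nmol and 12 higher and 15 lower at 35 nmol. With spike-in scaling 1 was higher and 26 lower at 70 nmol, and all 27 were lower at 35 nmol. Tlr4, the lipopolysaccharide receptor, differed by 0.49 ± 0.20 at 70 nmol and -0.21 ± 0.21 at 35 nmol, and between the doses by 0.70. Its 0.49 would fall within the scanner error with the spike-in shift of -0.36. Map3k7, the kinase TAK1 that links TNF and interleukin-1 receptors to NF-kB, differed by -0.39 ± 0.32 and -0.50 ± 0.33 from TPA alone at 70 and 35 nmol, or by -0.061 and -0.070 with normexp. Of 8 measured genes that control cytokine messages, 5 were higher and 3 lower at each dose, and all 8 were lower at each dose with spike-in scaling. Zfp36, tristetraprolin, which promotes decay of Tnf mRNA, differed by 0.25 at 70 nmol and 0.14 at 35 nmol, or -0.11 and -0.28 with spike-in scaling. Hnrnpd, the AU-rich element binding protein AUF1, differed by 0.29 and 0.27, or -0.068 and -0.15 with spike-in scaling.

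Of 19 measured feedback and target genes, 16 were higher and 3 lower at each dose, with medians of 0.31 at 70 nmol and 0.22 at 35 nmol. With spike-in scaling 7 were higher and 12 lower at 70 nmol, and 4 higher and 15 lower at 35 nmol, while 15 and 16 lay above the median of all genes under either scaling. Vcam1, an adhesion molecule induced by TNF, had levels of -3.47 on TPA alone, -2.47 at 35 nmol and -1.76 at 70 nmol. It was higher by 1.72 ± 0.37 at 70 nmol and 1.01 ± 0.39 at 35 nmol, but lay near the limit of detection on TPA alone, and normexp gave 0.77 and 0.49. Lcn2, lipocalin-2, an iron-trapping protein induced through NF-kB and C/EBP factors, was lower at both doses, by 1.29 at 70 nmol (difference -1.29 ± 0.24) and 1.46 at 35 nmol (difference -1.46 ± 0.25), or -0.70 and -0.79 with normexp. Socs1, a feedback inhibitor of JAK signalling, differed by 0.74 at 70 nmol and 0.85 at 35 nmol, and Tgfbi, a TGF-beta target, by 0.99 and 0.38 (-0.045 at 35 nmol with spike-in scaling). The values of Socs1 and Tgfbi, like those of Tnfrsf1a, Osmr, Ltbp3, Itgav, Nrros, Furin, Nlrp3 and Casp1, were picked after they were seen.

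**Figure D3:**
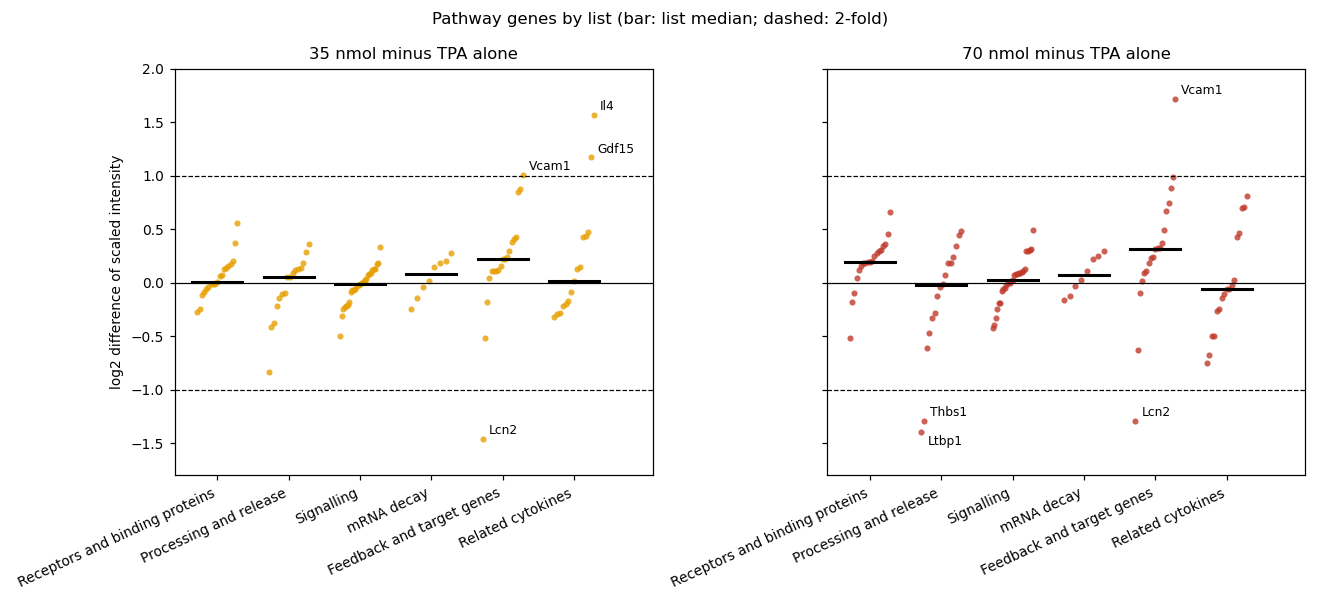
Difference from TPA alone (log2 scaled intensity, y axis) of the measured genes of 6 lists around the cytokines, at 35 nmol on the left and 70 nmol on the right. Each point is a gene, thick bars are list medians and dashed lines 2-fold; receptors (median 0.19 at 70 nmol, or -0.17 with spike-in scaling) and target genes (0.31, or -0.047) have the highest medians at 70 nmol, and Ltbp1, Thbs1 and Lcn2 lie below the lower line there.

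Of 36 related cytokines, 35 were on the array and 20 had a probe well above background on at least 1 array. Between the doses, 2 of 15 measured were higher and 13 lower at 70 than at 35 nmol, with a median of -0.26 beside 0.0016 over all genes, and -0.20 beside 0.063 with spike-in scaling. Il4, the type 2 cytokine, had levels of -2.71 on TPA alone, -1.14 at 35 nmol and -2.26 at 70 nmol. It was 1.57 ± 0.27 higher at 35 nmol and 0.46 ± 0.30 higher at 70 nmol than on TPA alone. The spike-in shift of -0.36 at 70 nmol would bring the 0.46 within its scanner error. Gdf15, a stress-induced member of the TGF-beta family, was higher by 0.70 ± 0.28 at 70 nmol and 1.17 ± 0.26 at 35 nmol. With normexp neither Il4 (0.87 at 35 nmol) nor Gdf15 (0.67) reached 2-fold. Il12b, Il23a, Csf2 and Ifnb1 were among those not well above background on any array.

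Genes whose dose pattern was nearest to a member's were found by distance in the 2 differences from TPA alone, among genes with a level on TPA alone within 1 log2 unit of the member's, from 11013 genes measured on all 3 arrays. The nearest to Tnf were Acacb (0.87 at 70 nmol, 0.35 at 35 nmol), Fmn1 (0.84, 0.34) and Mrps18b (0.84, 0.30), and 34 of 2518 genes lay within 0.2 of it. Like that of Tnf, the differences of these neighbours at 35 nmol are smaller than the spike-in shift of the median gene. Near Il1rn were Itpka, A430093F15Rik and Spaca4, with 24 of 2232 genes within 0.2. Near Il6 were Srbd1, Tefm and Cdc42bpg (89 of 2458), and near Il15, taken by the probe A_52_P383066, Igkv4-58, Bcar1 and Cblb (99 of 2135). Around the members with small differences such neighbours were many, 247 of 2516 genes for Il1b, 221 of 2387 for Osm, 1522 of 3277 for Il18 and 1373 of 3273 for Tgfb1. Nearest to these were Car7, Cebpg and Nfe2l3 for Il1b, Pcgf3, Zscan20 and AW554918 for Osm, Hcfc1r1, Pbx2 and Mark4 for Il18, and Yy1, Rae1 and Ddhd2 for Tgfb1. All of these rest on 3 arrays.

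Marker lists of cell types that can make or answer these cytokines were compared as sums of linear scaled intensity in which 1 is the 75th percentile of an array. Macrophage markers (8 of 8 well above background) summed to 687 on TPA alone, 764 at 35 nmol and 697 at 70 nmol, but Lyz2 was saturated on all 3 arrays. Without it the sums were 454, 457 and 400, with 4 markers higher and 3 lower at 70 nmol than on TPA alone, from -0.51 for Adgre1 to 0.76 for Fcgr1. Large peritoneal macrophage markers (9 of 9) summed to 615, 653 and 493, a sum in which Icam2 was saturated on 2 arrays. Without it the sums were 382, 353 and 218, and all 8 other markers were lower at 70 nmol than on TPA alone, by 0.15 for Prg4 to 1.65 for Alox15 (differences -0.15 and -1.65). Monocyte markers (6 of 7) summed to 309, 308 and 324, and without Fn1, the brightest, to 91.6, 94.4 and 141.5. Mast cell markers, from a cell that stores Tnf, summed to 24.4, 13.5 and 7.54 in the same order, with 6 of 8 well above background and Ms4a2 and Tpsab1 not. Neutrophil markers (6 of 9, without Camp, Ltf and Ngp) summed to 10.3, 7.37 and 14.6. That sum rests on S100a9 (5.12, 2.16 and 10.4), without which it was 5.16, 5.21 and 4.19. Of the 6 markers, 3 were higher at 70 nmol than on TPA alone (S100a9 by 1.02, S100a8 by 0.46 and Retnlg by 1.03). The other 3 were lower (Cxcr2, Csf3r and Mmp9, differences -1.39, -0.64 and -0.61). Fibroblast markers, from a cell that makes Il6 and answers TGF-beta, summed to 9.59, 10.9 and 32.7, with 4, 4 and 6 of 6 well above background. B cell markers (6 of 6) summed to 261, 252 and 205. T and NK cell markers stayed between 11.6 and 12.7, without Cd4, with 7, 7 and 6 of 8 well above background. Dendritic cell markers (3 of 6) stayed between 2.60 and 3.22. Eosinophil markers summed to 1.71, 2.51 and 1.84, without Epx and Prg2, with 2, 3 and 2 of 5 well above background. Mesothelial markers summed to 0.479, 0.520 and 0.913, with 2, 2 and 3 of 5 well above background. Hepatocyte markers summed to 20.1, 59.4 and 0.274, with 6, 6 and 1 of 7 well above background, and red cell markers (4 of 5) to 67.0, 11.6 and 35.3. Mast cell, B cell and, without Icam2, large peritoneal macrophage sums were lower in dose order, against Tnf. Fibroblast, mesothelial and, without Fn1, monocyte sums were higher in dose order, like Tnf. That order rested on Dcn in the fibroblast list and on Msln in the mesothelial list. Without Dcn the fibroblast sums were 6.275, 6.097 and 18.88 in the same order of arrays. Without Msln the mesothelial sums were 0.2039, 0.1945 and 0.4737. Fibroblast sums and those of several other lists were highest at 70 nmol, where Il6 was lowest. Lowest at 70 nmol, like Il6, were mast cell, B cell and hepatocyte sums. So were macrophage sums without Lyz2 and large peritoneal macrophage sums without Icam2. The macrophage case rested on Adgre1, without which the sums were 250.4, 247.6 and 257.4, highest at 70 nmol. The sums without single markers were added after the values were seen, and the part of any of these cells in the cytokine levels was not tested.

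**Figure D4:**
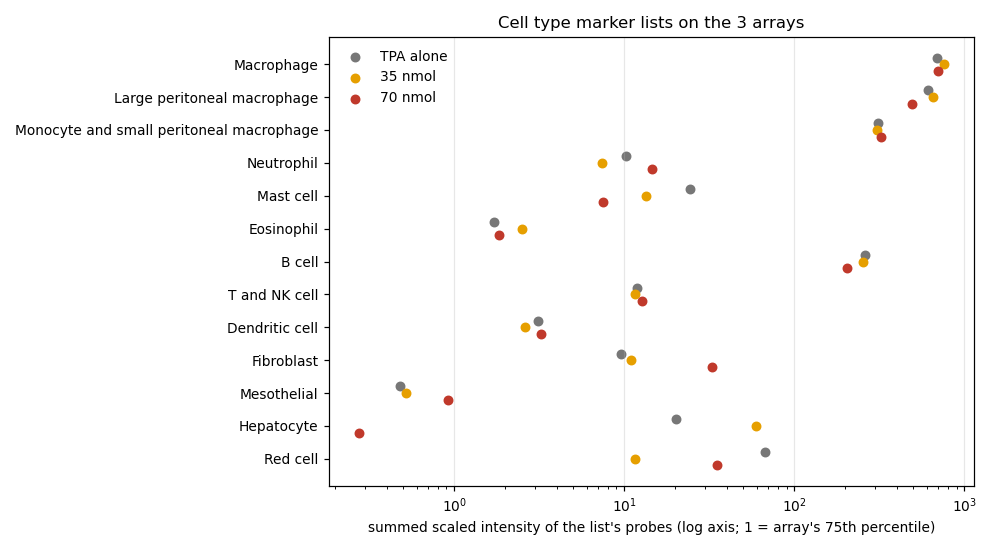
Summed scaled intensity (x axis, log scale, 1 is the 75th percentile of the array) of 13 cell type marker lists on the TPA-alone, 35 nmol and 70 nmol arrays, 1 point per array; the macrophage sums (687, 764 and 697) include the saturated Lyz2 and the large peritoneal macrophage sums (615, 653 and 493) the saturated Icam2. The mast cell sums are lower in dose order (24.4, 13.5 and 7.54) and fibroblast sums are highest at 70 nmol (32.7, against 9.59 on TPA alone).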

How the data were processed

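Agilent Feature Extraction 10.5.1.1 turned the scans into spot intensities, per the file headers, which place the probes on build mm8. Of the deposited intensity columns, the processed signal and its error served throughout, and mean and local background signals served for normexp. Values in the authors' deposited table are log2 and differed from log2 of the processed signal by a fixed amount per array (8.00, 7.61 and 7.67 on TPA alone, 35 and 70 nmol) within 0.01 for 99.8%, 99.8% and 99.9% of probes well above background. The medians of its columns were -3.60, -3.74 and -3.78; its scale and direction are thus known, with no centring of genes.

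Here the log2 processed signal was set relative to the 75th percentile of each array, taken over 43379 non-control spots (8.07, 7.69 and 7.74). Outlier spots were dropped before spots were averaged to probes. A probe was well above background when over 50% of its used spots were flagged so. Probes were named through their accession in the RefSeq table of GRCm38.p6 (24375 probes), by symbol or synonym (6301 and 2426), or kept the file's name (8072). A gene's value in the lists was that of its brightest probe. With 1 array per group no test was made; differences are given with the scanner software's error and counted at 2-fold.

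The members and the gene lists were chosen with earlier results of these data known. The rule for named genes took every member probe, the 3 nearest genes of each member measured on all 3 arrays, and from each list the genes at least 2-fold different from TPA alone plus the 2 with the largest differences; others are said to have been picked after their values were seen. Tried as alternatives were cyclic loess and quantile normalisation, normexp (offset 50), scaling on spike-in RNA (4 of 10 probes, with signals of 8 to 14 in log2) or on the median detected probe, the deposited value table, averaging of a gene's probes, filters on dim probes that were looser or stricter, and 1.5-fold and 3-fold thresholds. Steps were tested on simulated data. The tools were R 4.3.3 (limma 3.58.1 for normalisation) and Python 3.11.15 (pandas 2.3.3, numpy 2.4.6, matplotlib 3.10.9).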

Additional observations from a re-analysis of the deposited data

How the results depend on the processing

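No paired analysis was possible because each group has 1 array, and for the same reason no replicate could be left out. Each member probe was recomputed under the settings that leave it measured: of 195 values, 169 lay within the scanner error of the reported one and 26 moved further. The sign changed in 13 values, spread over 10 of 27 combinations of probe and comparison, most of them with spike-in scaling and all of them in differences of 0.34 or less. The members lie mostly near the dim end, so signal over background limits them, and with the stricter filter only 2 of the 9 probes remained.

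No member probe reached 2-fold at 70 nmol, 35 nmol or between the doses. With spike-in scaling 1 of 9 did at 35 nmol (Il15, -1.32), where 326 of 12730 genes did. With the looser filter 3 of 13 member probes did at 70 nmol and 1 of 12 at 35 nmol. Those were all lower and not well above background on one of the arrays. Over all genes, that filter gave 1203 of 14162 at 70 nmol and 931 of 14190 at 35 nmol. At 1.5-fold the counts of member probes were 2, 2 and 1 of 9.

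Over all measured genes, 340 differed 2-fold at 70 nmol, 181 at 35 nmol and 203 between the doses (60.0%, 79.0% and 56.2% of them higher). Normexp gave 128, 65 and 59 (62.5%, 84.6% and 66.1% higher), and the stricter filter 131, 34 and 67. The looser filter gave 1203, 931 and 853 (36.7%, 42.9% and 44.0% higher). Spike-in scaling gave 491 at 70 nmol (17.7% higher) and 326 at 35 nmol (21.8% higher). Thresholds of 1.5-fold gave 1176, 622 and 807, and of 3-fold 71, 63 and 40. The cause of these shifts was not tested beyond what each setting does by construction.

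Of the list genes, 4, 4 and 3 differed 2-fold in the 3 comparisons. The counts were 2, 0 and 0 with normexp, 2, 0 and 1 with the stricter filter, 7 at 70 nmol and 5 between the doses with the looser filter, 16, 7 and 8 at 1.5-fold, and 1, 0 and 0 at 3-fold. Quantile and cyclic loess normalisation, the median scaling and the deposited table left each count of 2-fold calls within 1.5 times its reported value, as did the mean over probes for all genes and lists.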
